A study of Mus musculus with 4 samples.

Results

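The 36 genes described here encode the enzymes that write and remove DNA methylation and the subunits of the Polycomb complexes. They were taken by gene symbol from the 38124 gene IDs of the count tables, with no threshold on a measured value, and all 36 were found. Each had enough counts to be tested, with 9 to 2420 counts in a library, and 28 of them reached 100 counts in at least 2 libraries.

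The RNA came from C57BL/6 mice, all of them 71-week-old males, fed either a normal diet (control) or a high-fat diet (HFD). The titles call the control libraries WT and the others HFD, and the labels give no genotype beyond the shared strain. Sorting by GFP gave a GFP-high fraction, named intestinal stem cells in the labels, and a GFP-low fraction, named progenitors. Each of the 4 combinations of diet and fraction gave 1 poly(A) library, made from 200000 sorted cells pooled from 2 to 5 mice. The gene that drives GFP, the makeup of the diets, and whether the fractions share mice are not stated in the labels.

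DNA methyltransferases add a methyl group to cytosine: Dnmt1, brought to newly replicated DNA by Uhrf1, copies existing marks after each round of DNA synthesis, while Dnmt3a and Dnmt3b place new ones. TET enzymes oxidise the mark and the glycosylase TDG removes the oxidised base. Polycomb repressive complex PRC2 methylates histone H3 at lysine 27 (H3K27), and PRC1 ubiquitinates histone H2A. Both keep lineage and developmental genes silent, and in the intestine both are known to help maintain the proliferating crypt.

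Library totals ran from 4677389 to 6207080 counts. The stem cell receptor gene Lgr5 stood at 241 and 242 CPM (counts per 1000000 after TMM scaling of library sizes) in the control and HFD GFP-high libraries and at 12.7 and 12.5 in the GFP-low libraries. All 10 stem cell markers were called higher in GFP-high cells. Differentiated markers were present in both fractions, with higher sums in GFP-low for each type. The gap was smallest for the 7 tuft markers, at 14.1 and 16.8 CPM in GFP-high (control, HFD) and 32.2 and 25.9 in GFP-low. The 8 goblet markers summed to 3589 and 3184 CPM in GFP-high (control, HFD) and to 40660 and 17846 in GFP-low. Over 14 leukocyte markers the sums were 11.4 to 12.9 CPM in GFP-high and 23.5 to 35.6 in GFP-low, most of it from Itgam (60 and 67 counts in GFP-high, 131 and 101 in GFP-low), and the defining gene Ptprc had 0 counts everywhere. The 12 fibroblast, muscle and endothelial markers summed to 0.809 to 2.40 CPM. In pooled cells, fewer cells of a type and less RNA per cell cannot be told apart.

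Levels were first set side by side per kilobase (kb) of exon, the scale on which different genes can be compared. Rbbp7, a histone chaperone of PRC2, was the most abundant of the 36 on this scale, at 41.9 to 61.3 CPM per kb. In CPM it was below Dnmt1 in every library, and its first place rests on exons of 2909 bp against 7377 bp. Its exons overlap those of Txlng on the other strand, a gene with far fewer counts. Dnmt1 came next, at 23.2 to 49.1, followed by its recruiter Uhrf1 at 14.7 to 31.1 and the PRC2 scaffold Suz12 at 18.9 to 22.6. In the ranges of Uhrf1 and Suz12 the libraries overlap, so their order is not fixed. At the bottom stood Tet1 at 0.147 to 0.960, Pcgf5 at 0.529 to 0.831 and Phf19, an accessory PRC2 subunit, at 0.405 to 1.43 CPM per kb. The low places of Tet1 and Pcgf5 rest in part on long exons, of 15457 and 12629 bp.

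**Figure D1:**
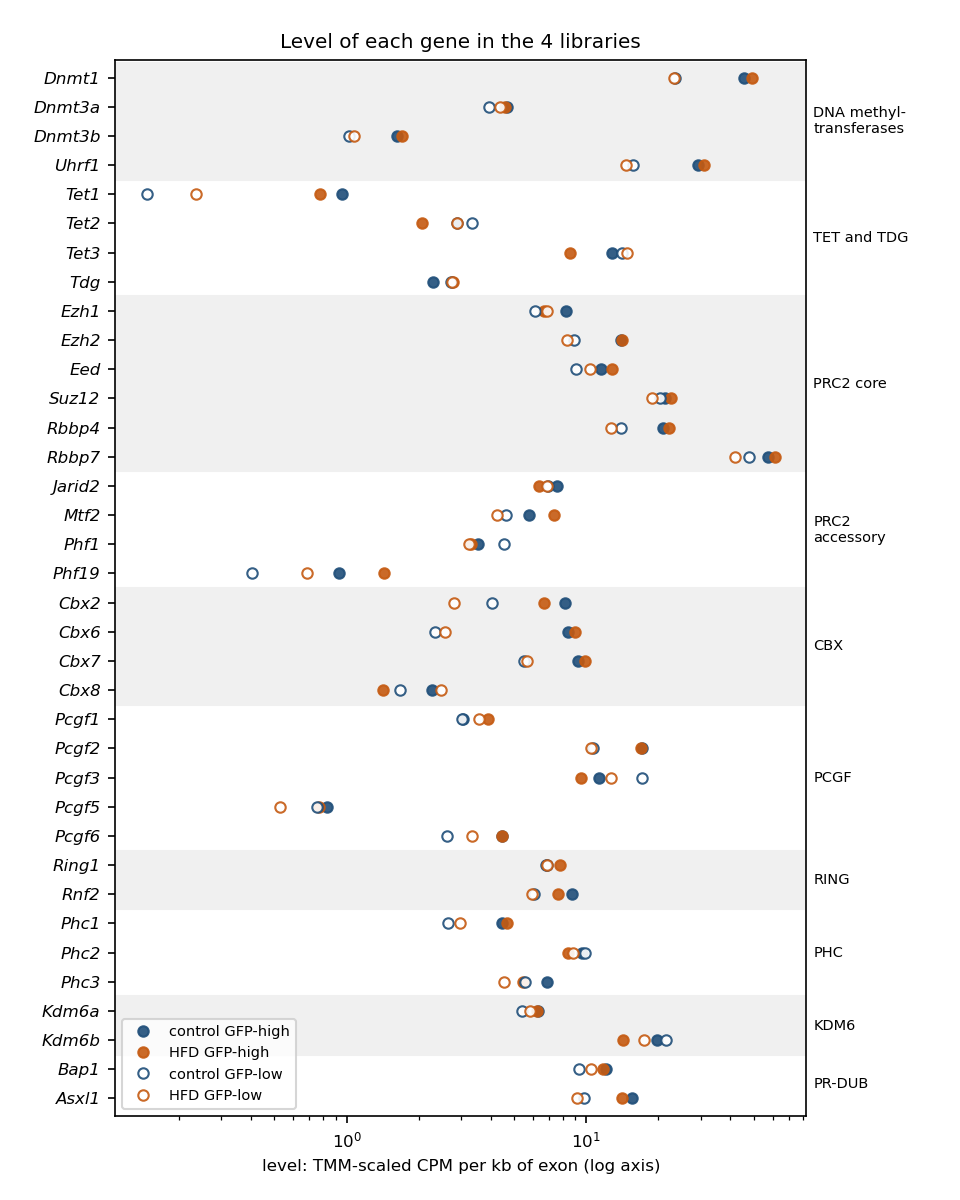
Level of each of the 36 genes in the 4 libraries, as TMM-scaled CPM per kb of exon on a log axis, grouped by role; filled points are GFP-high and open points GFP-low, blue is control and orange HFD. For Dnmt1, Uhrf1, Tet1, Cbx6 and Cbx7 both filled points lie to the right of both open ones, while for Pcgf3 and Tet3 they lie to the left.

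Promoter letters are described ahead of the comparisons, though they were read after the fits had been run. Genes of DNA synthesis share binding motifs of the E2F factors, and several of the 36 act at replication. RefSeq windows of 250 bases before the start (GRCm38.p6) were available for 33 of the 36 genes. Letters of the E2F type (TTTCCCGC, TTTGGCGC, TTTCGCGC or TTTGCCGC on either strand) were found for 4 genes: Dnmt1, Uhrf1, Suz12 and Phf19. Of the 44 windows of the 33 genes, 9.09% held such letters, against 1.86% of all 32851 windows in the table and 4.26% of the windows with an observed over expected CpG ratio of at least 0.6. The E-box CACGTG, the core letters bound by MYC-type factors, was found in 22.7% of the windows, against 6.02% of all and 9.49% of the CpG-rich ones. CCAAT letters were found in 38.6% against 33.8% of all windows, and the cell cycle element CHR (TTTGAA or TTCGAA) in 15.9% against 17.1%. A match of letters is a description and not a bound site. The stretches outside annotated exons are shown for the matches that allow it, 5′ to 3′ on the gene's strand, with the E2F letters in capitals.
Uhrf1: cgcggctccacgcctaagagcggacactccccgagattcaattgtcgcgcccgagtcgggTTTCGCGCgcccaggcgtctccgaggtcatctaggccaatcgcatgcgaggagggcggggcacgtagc
Suz12: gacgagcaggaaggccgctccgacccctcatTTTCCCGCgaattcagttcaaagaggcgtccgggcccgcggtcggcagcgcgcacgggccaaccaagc
Phf19: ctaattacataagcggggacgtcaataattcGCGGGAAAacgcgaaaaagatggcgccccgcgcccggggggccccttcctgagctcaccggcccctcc
On GRCm38 these are chr17:56304068-56304195 (plus strand) for Uhrf1, chr11:79992856-79992954 (plus strand) for Suz12 and chr2:34914117-34914215 (minus strand) for Phf19. Their first matching bases lie 185, 219 and 208 bases before the RefSeq starts. The Uhrf1 stretch is inside the GENCODE M21 gene and outside its exons, whereas the other stretches lie upstream of the M21 genes. The match of Dnmt1, 219 bases before its RefSeq start, falls in an annotated exon and is not printed.

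The first comparison asked which of the 36 genes differed between GFP-high and GFP-low cells. With edgeR's quasi-likelihood test over both diets (Benjamini-Hochberg adjusted p under 0.05), 17 were higher in GFP-high, 3 were lower and 16 were not called. Among all 10694 genes tested, 22% were called higher and 25.6% lower, 47.6% in either direction. The median log2 ratio between GFP-high and GFP-low was 0.33 for the 36 genes and -0.00 for all genes, and the ratio was above 0 for 28 of the 36 genes. Both GFP-high libraries lay apart from both GFP-low libraries for 26 of the 36, where 68% of all genes tested did so. The fit leaves 1 residual degree of freedom, which is the difference between the diet ratios of GFP-high and GFP-low. A gene whose diet ratio is unlike in the fractions thus has a larger error, and no replicate enters. Each gene's error is also pulled toward a prior drawn from all genes tested. The p-values thus rest on spread among these 4 libraries, pooled over genes, and not on a gene's own difference alone. That spread could be technical.

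**Figure D2:**
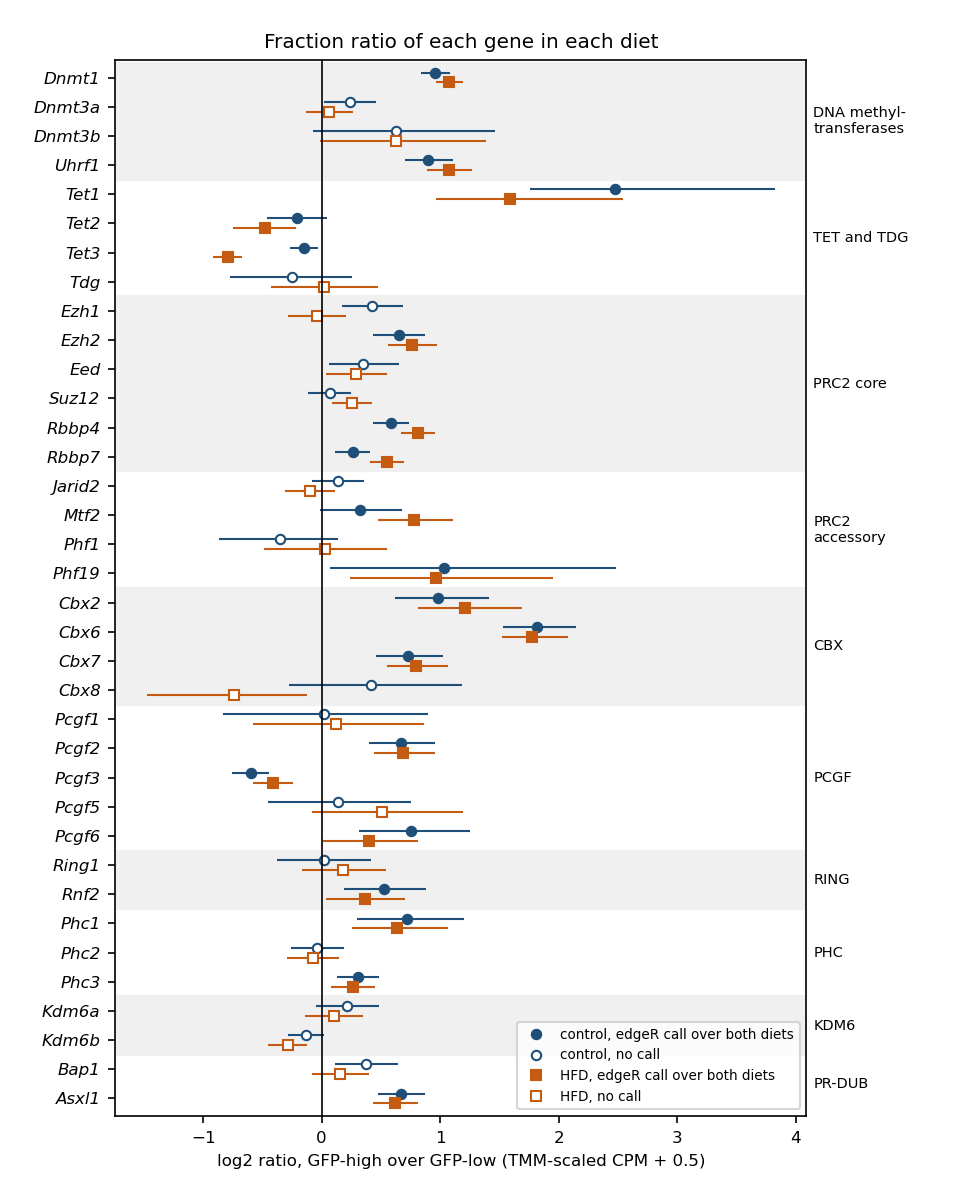
GFP-high to GFP-low ratio (log2) of each gene in control (blue circles) and HFD (orange squares), from CPM with 0.5 added, with bars for the exact 95% counting interval of the count ratio; filled symbols mark genes called by edgeR over both diets. Cbx6 and Tet1 stand farthest right in both diets, and Pcgf3 and Tet3 are left of 0 in both.

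Among the DNA methyltransferases, the maintenance pair was higher in GFP-high cells and the enzymes that place new methylation were not called. Dnmt1 (chr9:20907209-20959888) had 337 and 363 CPM in GFP-high (control, HFD) against 173 and 171 in GFP-low. Both GFP-high libraries lay well above both GFP-low ones, and Dnmt1 was 2.03-fold higher (log2 ratio 1.02 ± 0.10 SE, edgeR adjusted p = 3.97e-07). The same held for Uhrf1 (chr17:56303321-56323486), the protein that recognises hemimethylated DNA and recruits Dnmt1. Its levels were 125 and 132 CPM in GFP-high and 66.8 and 62.7 in GFP-low, 1.99-fold higher (log2 ratio 0.99 ± 0.11 SE, edgeR adjusted p = 2.11e-06). Per kb, the ratio of Uhrf1 to Dnmt1 was 0.643 and 0.632 in the GFP-high libraries and 0.669 and 0.634 in the GFP-low ones, with 95% counting intervals that all overlap.

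Dnmt3a, the more abundant of the enzymes for new methylation, had 77.5 and 76.0 CPM in GFP-high against 65.7 and 72.6 in GFP-low (log2 ratio 0.15 ± 0.11 SE, edgeR adjusted p = 0.3). Dnmt3b had 8.33 and 8.69 CPM in GFP-high against 5.21 and 5.46 in GFP-low. Its groups did not overlap, but its ratio of 1.59-fold missed the threshold at these counts of 23 to 58 per library (log2 ratio 0.67 ± 0.31 SE, edgeR adjusted p = 0.0855). Within the family, Dnmt1 made up 87.9% and 88.7% of the level per kb in GFP-high and 82.5% and 81.0% in GFP-low. The share of Dnmt3a was 8.97% and 8.24% in GFP-high and 13.9% and 15.2% in GFP-low.

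The TET enzymes did not move together. Tet1 (chr10:62804570-62908996) had 82 and 80 counts in GFP-high and 10 and 18 in GFP-low, or 14.8 and 12 against 2.27 and 3.64 CPM. Low in all 4 libraries, it still had the largest ratio of the 36 genes, 4.44-fold higher in GFP-high (log2 ratio 2.15 ± 0.34 SE, edgeR adjusted p = 8.35e-05). The counting intervals of its log2 ratio were wide, 1.76 to 3.82 in control and 0.97 to 2.54 in HFD.

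Tet3 (chr6:83362373-83459084), the most abundant TET gene, was lower in GFP-high, at 213 and 143 CPM against 237 and 247 in GFP-low. The ratio was 1.39-fold lower (log2 ratio -0.47 ± 0.14 SE, edgeR adjusted p = 0.0259). Its size in the 2 diets was unlike, a difference that was not tested. In control it was -0.15 with a counting interval of -0.27 to -0.03, and in HFD -0.79 with -0.92 to -0.67. Tet2 had 48.7 and 34.8 CPM in GFP-high against 56.2 and 48.6 in GFP-low, groups that overlap slightly. It was called lower by 1.27-fold (log2 ratio -0.34 ± 0.13 SE, edgeR adjusted p = 0.0409), a call that was lost with the RLE scaling of DESeq2. With library totals in place of TMM both TET calls were lost, and the ratio of Tet3 in control turned to 0.0210. Tdg, at 12.3 to 15 CPM, was not called. Per kb, Tet3 held 75.1% to 82.6% of the TET level in the 4 libraries, while the share of Tet1 was 5.78% and 6.81% in GFP-high and 0.831% and 1.31% in GFP-low.

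In the PRC2 core, 3 of 6 genes were higher in GFP-high and none was lower. Ezh2, the catalytic subunit found mainly in dividing cells, had 93.0 and 94.5 CPM in GFP-high against 59.1 and 55.6 in GFP-low. The diets lay close together within each fraction, and Ezh2 was 1.64-fold higher in GFP-high (log2 ratio 0.71 ± 0.11 SE, edgeR adjusted p = 8.35e-05). Rbbp4, a histone chaperone shared with other chromatin complexes, was at 183 and 194 CPM against 122 and 111, 1.62-fold higher (log2 ratio 0.70 ± 0.10 SE, edgeR adjusted p = 3.38e-05). Its close relative Rbbp7 was at 167 and 178 CPM against 139 and 122, 1.33-fold higher (log2 ratio 0.41 ± 0.10 SE, edgeR adjusted p = 0.00397).

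The other catalytic subunit, Ezh1, which is known for a role in resting cells, had 61.0 and 49.6 CPM in GFP-high against 45.3 and 51.0 in GFP-low and was not called (edgeR adjusted p = 0.273). Per kb, the ratio of Ezh2 to Ezh1 was 1.70 (95% counting interval 1.48 to 1.95) and 2.12 (1.86 to 2.43) in the control and HFD GFP-high libraries. In GFP-low it was 1.45 (1.20 to 1.76) and 1.22 (1.02 to 1.45), so the intervals of the fractions overlapped in control and lay apart in HFD. Suz12, the scaffold whose promoter stretch is shown above, had 106 and 112 CPM in GFP-high against 101 and 93.5 in GFP-low (edgeR adjusted p = 0.22). Eed, which binds the H3K27 mark, was at 44.3 and 48.8 against 34.7 and 39.9 CPM and missed the threshold (log2 ratio 0.32 ± 0.13 SE, edgeR adjusted p = 0.0531). The ratio of Ezh2 to Suz12 per kb was thus 0.653 and 0.627 in GFP-high and 0.435 and 0.441 in GFP-low.

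Of the accessory subunits that guide PRC2 to its targets, 2 of 4 were higher in GFP-high. Mtf2, which binds CpG-rich DNA, had 32.9 and 41.9 CPM in GFP-high against 26.3 and 24.3 in GFP-low, 1.48-fold higher (log2 ratio 0.57 ± 0.16 SE, edgeR adjusted p = 0.00679). Phf19, its relative, had 26 and 48 counts in GFP-high and 9 and 17 in GFP-low. At 4.71 and 7.19 against 2.04 and 3.44 CPM its groups stayed apart, and it was 2.16-fold higher (log2 ratio 1.11 ± 0.37 SE, edgeR adjusted p = 0.0218). Phf1, the remaining relative of Mtf2, at 11.3 to 15.9 CPM, and Jarid2, at 62.0 to 73.7 CPM, were not called.

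The chromobox (CBX) proteins, which read the H3K27 mark for PRC1, were higher in GFP-high for 3 of 4 genes. Cbx6 (chr15:79823896-79834688) had 88.9 and 94.8 CPM in GFP-high against 24.9 and 27.3 in GFP-low. Its ratio was nearly the same in both diets, 1.81 (interval 1.53 to 2.15) in control and 1.78 (1.53 to 2.07) in HFD, on the log2 scale. Over both it was 3.51-fold higher (log2 ratio 1.81 ± 0.13 SE, edgeR adjusted p = 1.24e-08). Cbx2 was at 34.6 and 28.3 CPM against 17.2 and 11.9, with GFP-high above GFP-low in both diets and HFD the lower library of each fraction. It was 2.17-fold higher in GFP-high (log2 ratio 1.12 ± 0.17 SE, edgeR adjusted p = 5.39e-05).

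Cbx7, at 59.7 and 64.0 against 35.8 and 36.6 CPM, was 1.71-fold higher (log2 ratio 0.77 ± 0.13 SE, edgeR adjusted p = 0.000111). Its exons overlap those of Apobec3 on the other strand, which was also called higher in GFP-high and had 992 and 795 counts there against 543 and 409 in GFP-low, so reads of these genes may be mixed if strand was ignored in counting. The same limit holds for Mtf2, Rnf2, Phf1, Rbbp4 and Tdg, whose exons overlap Tmed5, Trmt1l, Cuta, Sync and Glt8d2 on the other strand. Cbx6 overlaps Npcd on its own strand, which had 0 counts. Whether reads over shared exons were dropped from either gene was not checked. Cbx8, with 27 to 46 counts per library, was not called.

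The PCGF proteins, which pair with a RING1 ligase and define the variants of PRC1, split in direction. Pcgf2 (also called Mel18), a subunit of canonical PRC1, had 60.1 and 59.9 CPM in GFP-high against 37.6 and 37.0 in GFP-low, 1.61-fold higher (log2 ratio 0.69 ± 0.13 SE, edgeR adjusted p = 0.000319). Pcgf6, of a variant PRC1 that works with E2F6 and MGA, was at 22.4 and 22.3 against 13.1 and 16.8 CPM, 1.49-fold higher (log2 ratio 0.58 ± 0.19 SE, edgeR adjusted p = 0.018). Pcgf3 (chr5:108461232-108506976), of another variant PRC1, was the reverse: 108 and 90.8 CPM in GFP-high and 163 and 121 in GFP-low. All groups of these 3 genes stayed apart, and Pcgf3 was 1.42-fold lower in GFP-high (log2 ratio -0.51 ± 0.10 SE, edgeR adjusted p = 0.000751).

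Per kb, Pcgf2 was above Pcgf3 in GFP-high, by a ratio of 1.51 (95% counting interval 1.32 to 1.73) in control and 1.79 (1.57 to 2.03) in HFD. In GFP-low the order was the opposite, with ratios of 0.624 (0.524 to 0.740) and 0.831 (0.700 to 0.982). In counts Pcgf3 was above Pcgf2 in every library, so the order in GFP-high rests on exon lengths of 9544 and 3526 bp. The intervals take these lengths as exact. Pcgf1 and Pcgf5, at 4.98 to 10.5 CPM, were not called.

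**Figure D3:**
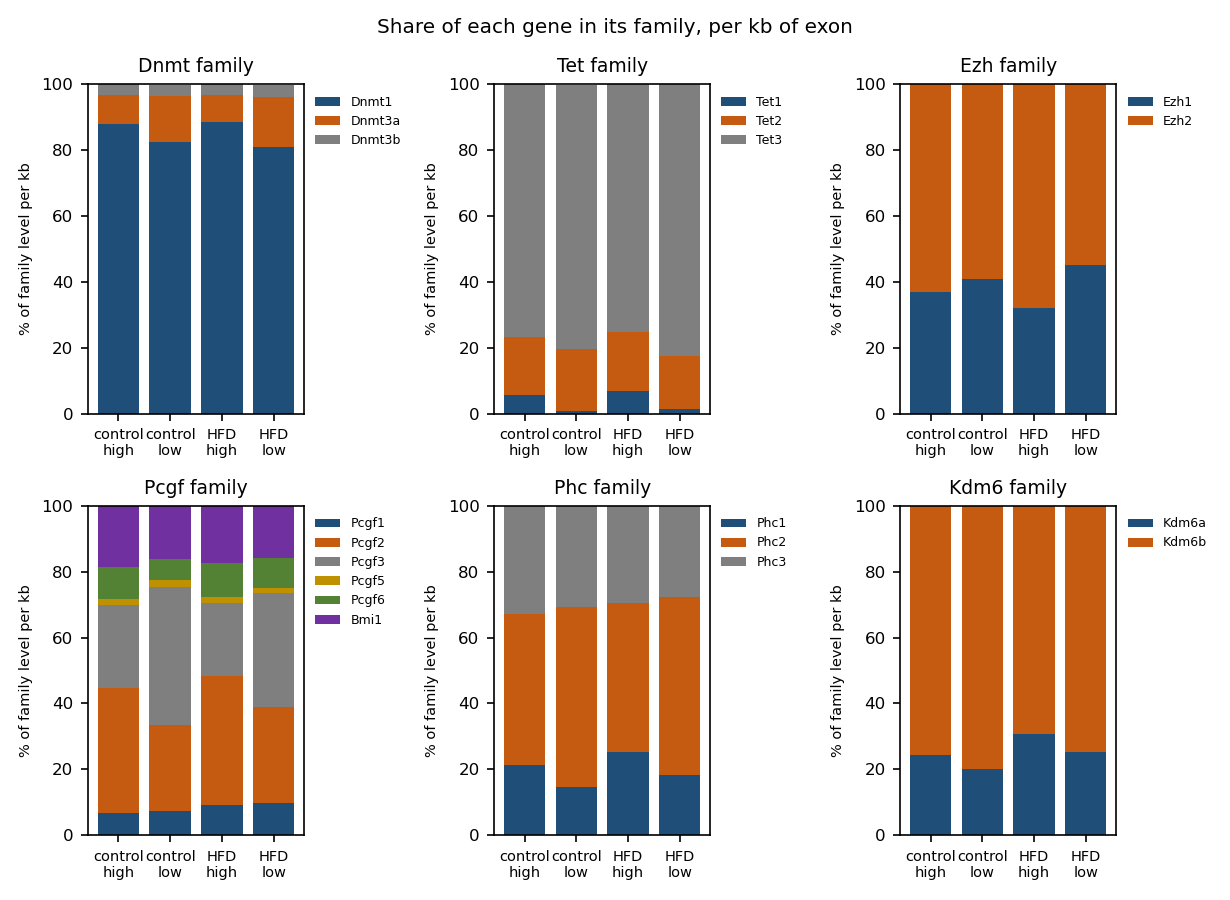
Share of each gene in the summed level of its family, in CPM per kb of exon, for the 4 libraries; Bmi1 completes the PCGF family. Dnmt1 takes 81.0% to 88.7% of its family, and the Pcgf3 part is 22.0% and 25.1% in GFP-high and 34.8% and 41.9% in GFP-low.

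Of the RING1 ligases that ubiquitinate H2A, Rnf2 (RING1B) had 36 and 31.6 CPM in GFP-high against 24.9 and 24.5 in GFP-low, 1.36-fold higher (log2 ratio 0.45 ± 0.15 SE, edgeR adjusted p = 0.0206). Ring1, at 22.0 to 25.3 CPM in the 4 libraries, was not called. Among the polyhomeotic genes, whose products let PRC1 cluster on chromatin, Phc1 was at 23.5 and 24.9 against 14.0 and 15.8 CPM, 1.62-fold higher (log2 ratio 0.70 ± 0.18 SE, edgeR adjusted p = 0.00411). Phc3 was called by a small margin at 1.22-fold higher (log2 ratio 0.29 ± 0.11 SE, edgeR adjusted p = 0.0335), with 120 and 95.4 CPM in GFP-high and 97.0 and 79.3 in GFP-low. These groups overlap, since the HFD GFP-high library lay below the control GFP-low one. Phc2, at 59.3 to 69.8 CPM, was not called.

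Of the enzymes that take Polycomb marks off and the partner of 1 of them, 4 genes in all, only the partner was called. Asxl1, the partner that activates the H2A deubiquitinase BAP1, had 116 and 105 CPM in GFP-high against 72.7 and 68.2 in GFP-low, 1.56-fold higher (log2 ratio 0.64 ± 0.11 SE, edgeR adjusted p = 0.000136). Bap1 itself was at 56.8 and 54.8 against 43.7 and 49.2 CPM (edgeR adjusted p = 0.0968). Neither H3K27 demethylase was called: Kdm6a was at 45.3 to 52.7 CPM and Kdm6b at 98.9 to 150.

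Some of these calls were firmer than others. With DESeq2 as the tool, 10 of the 36 genes were called, all of them higher in GFP-high: Dnmt1, Uhrf1, Tet1, Ezh2, Rbbp4, Cbx2, Cbx6, Cbx7, Pcgf2 and Asxl1 (8.41% of all genes were called higher and 13.9% lower by it). When 1 library was left out and the term for diet dropped, 5 to 10 genes were called, 5 without the HFD GFP-high library and 6 without the control GFP-high library. Of the 13 settings, Dnmt1, Uhrf1 and Cbx6 were called in all, and Tet1 in each of the 12 that tested it. The share of all genes called in every setting was not counted. Library totals in place of TMM shifted the median of all genes to 0.19 (log2) and gave 24 genes higher and 1 lower, against 34% and 17.8% of all genes.

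Within a single diet, 2 of the 36 genes were at least 2-fold higher in GFP-high in control (Tet1 and Cbx6), where 5.19% of all genes were. In HFD there were 5 (Dnmt1, Uhrf1, Tet1, Cbx2 and Cbx6), against 6.03% of all genes. None was 2-fold lower in either diet, against 8.71% and 8.44% of all genes. These counts compare single libraries and carry no test.

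Other genes of the same pathways were read from fixed lists. Of 34 further Polycomb subunits and partners, 27 were tested; 13 were called higher in GFP-high, 1 lower and 13 not, with a median log2 ratio of 0.36. The largest were Scml2, a PRC1-associated protein with few counts (log2 ratio 1.56 ± 0.47 SE, edgeR adjusted p = 0.0119), and Sfmbt1 (log2 ratio 1.03 ± 0.17 SE, edgeR adjusted p = 0.00011). The lower one was Usp16, a deubiquitinase of H2A (log2 ratio -0.41 ± 0.13 SE, edgeR adjusted p = 0.0144). Of 23 readers and partners of DNA methylation, 20 were tested, with 8 higher, 2 lower and a median of 0.29. Zbtb38, a zinc finger protein that binds methylated DNA, had 181 and 200 CPM in GFP-high against 70.0 and 63.5 in GFP-low (log2 ratio 1.51 ± 0.11 SE, edgeR adjusted p = 1.62e-08). Mbd4, a methyl-binding glycosylase, was also higher (log2 ratio 1.25 ± 0.24 SE). Apobec1, the cytidine deaminase that edits apolipoprotein B mRNA (log2 ratio -2.08 ± 0.23 SE), and Gadd45b (log2 ratio -1.0 ± 0.30 SE) were lower.

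Of the 17 genes listed for the H3K4 methyltransferase complexes, which oppose Polycomb, 6 were higher and none lower by edgeR, with a median of 0.24 (1 was lower at an unadjusted p under 0.05, and none by DESeq2). Psip1, a chromatin reader of these complexes (log2 ratio 0.97 ± 0.13 SE, edgeR adjusted p = 1.48e-05), and Kmt2a, a catalytic subunit (log2 ratio 0.55 ± 0.10 SE, edgeR adjusted p = 0.000205), had the largest ratios. The S phase and proliferation genes moved with the fraction too: 19 of 22 were called higher in GFP-high and none lower by edgeR, also at an unadjusted p under 0.05 (0) and by DESeq2 (0), with a median log2 ratio of 0.88. The largest were the replication licensing factors Cdt1, with 73.7 and 92.0 CPM in GFP-high against 33.3 and 40.7 in GFP-low (log2 ratio 1.16 ± 0.12 SE, edgeR adjusted p = 1.14e-06), and Cdc6 (log2 ratio 1.07 ± 0.18 SE, edgeR adjusted p = 0.000141). The part of proliferation, and of the goblet and other differentiated cells in GFP-low, in the ratios of the 36 genes was not tested.

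Genes that Polycomb and DNA methylation are known to keep silent were mostly at or near 0. Of 40 textbook Polycomb targets, 6 had enough counts to be tested and 15 had 0 counts in every library, among them Cdkn2a, the INK4A and ARF locus. Its neighbour Cdkn2b, a cell cycle inhibitor of the same locus, had 9 counts in each GFP-high library and 219 and 257 in GFP-low. At 1.63 and 1.35 CPM against 49.6 and 52.0, it was far lower in GFP-high in both diets (log2 ratio -5.09 ± 0.23 SE, edgeR adjusted p = 1.12e-10). Gata4, a transcription factor of the proximal gut that is active there, was slightly lower in GFP-high (log2 ratio -0.44 ± 0.10 SE, edgeR adjusted p = 0.00164), and Gata6 slightly higher (log2 ratio 0.24 ± 0.10 SE, edgeR adjusted p = 0.0488). None of 16 germline genes that promoter methylation keeps silent reached the count filter, and 12 had 0 counts in every library. A count of 0 allows up to 0.449 to 0.680 CPM in these libraries, from a limit of 3 counts.

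The second comparison asked which of the 36 genes differed between HFD and control. Over both fractions 1 was called lower in HFD, Kdm6b, and none higher; among all genes tested 3.5% were called lower and 2.96% higher, 6.46% in all. The median log2 ratio of HFD over control was -0.02 for the 36 genes and 0.01 for all genes, and 35 of the 36 lay within 0.4 of 0. At an unadjusted p under 0.05, edgeR had 5 of the 36 (Kdm6b, Pcgf3, Phc3, Tet2 and Cbx2, all lower in HFD), where 20.3% of all genes passed, 10.3% of them lower and 10.1% higher. DESeq2 had 1 of the 36, where 5.85% of all genes passed. With 1 pool of mice per diet and fraction, the diet cannot be told apart from other differences between the pools.

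Kdm6b (chr11:69398508-69413675), which removes the H3K27 mark and is known to be induced by inflammatory signals, was at 137 and 150 CPM in the control GFP-high and GFP-low libraries and at 98.9 and 121 in HFD. Both HFD libraries lay below both control libraries, as they did, in 1 direction or the other, for 22.6% of all genes. The log2 ratio was -0.39 ± 0.10 SE (edgeR adjusted p = 0.0276), with -0.46 (95% counting interval -0.62 to -0.31) in GFP-high and -0.31 (-0.47 to -0.15) in GFP-low. The call was lost with RLE scaling (edgeR adjusted p = 0.0574) and with DESeq2 (adjusted p = 0.8, with 1.07% of all genes called lower). Over all settings the adjusted p ran from 0.00579 to 1, and the ratio stayed below 0 in every setting run. Its relative Kdm6a was at 52.7 and 45.3 CPM in control and at 52.4 and 48.8 in HFD (log2 ratio 0.05 ± 0.12 SE). The ratio of Kdm6b to Kdm6a per kb was thus 3.13 and 3.98 in control and 2.27 and 2.99 in HFD.

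Pcgf3 was next, at 108 and 163 CPM in control and 90.8 and 121 in HFD. Each HFD library was below the control library of its fraction, but the difference missed the threshold (log2 ratio -0.34 ± 0.10 SE, edgeR adjusted p = 0.0586). It passed without the count filter and with a filter of 100 counts. Phc3 was at 120 and 97.0 CPM in control and at 95.4 and 79.3 in HFD (log2 ratio -0.31 ± 0.10 SE, edgeR adjusted p = 0.0917). Tet2 was at 48.7 and 56.2 against 34.8 and 48.6 CPM (log2 ratio -0.35 ± 0.13 SE, edgeR adjusted p = 0.131). Cbx2 was at 34.6 and 17.2 against 28.3 and 11.9 CPM (log2 ratio -0.37 ± 0.17 SE, edgeR adjusted p = 0.215). Phf19 was the gene farthest above 0, with 26 and 9 counts in control and 48 and 17 in HFD, and was not called (log2 ratio 0.65 ± 0.36 SE, edgeR adjusted p = 0.336).

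Between diets, 4 genes with a clear fraction call had small ratios that were not called. Dnmt1 had a log2 ratio of HFD over control of 0.05 ± 0.10 SE, Uhrf1 of 0.01 ± 0.11, Ezh2 of -0.03 ± 0.11 and Cbx6 of 0.11 ± 0.12 (edgeR adjusted p = 0.827, 0.99, 0.929 and 0.68). The standard errors allow differences of more than their own size in either direction.

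**Figure D4:**
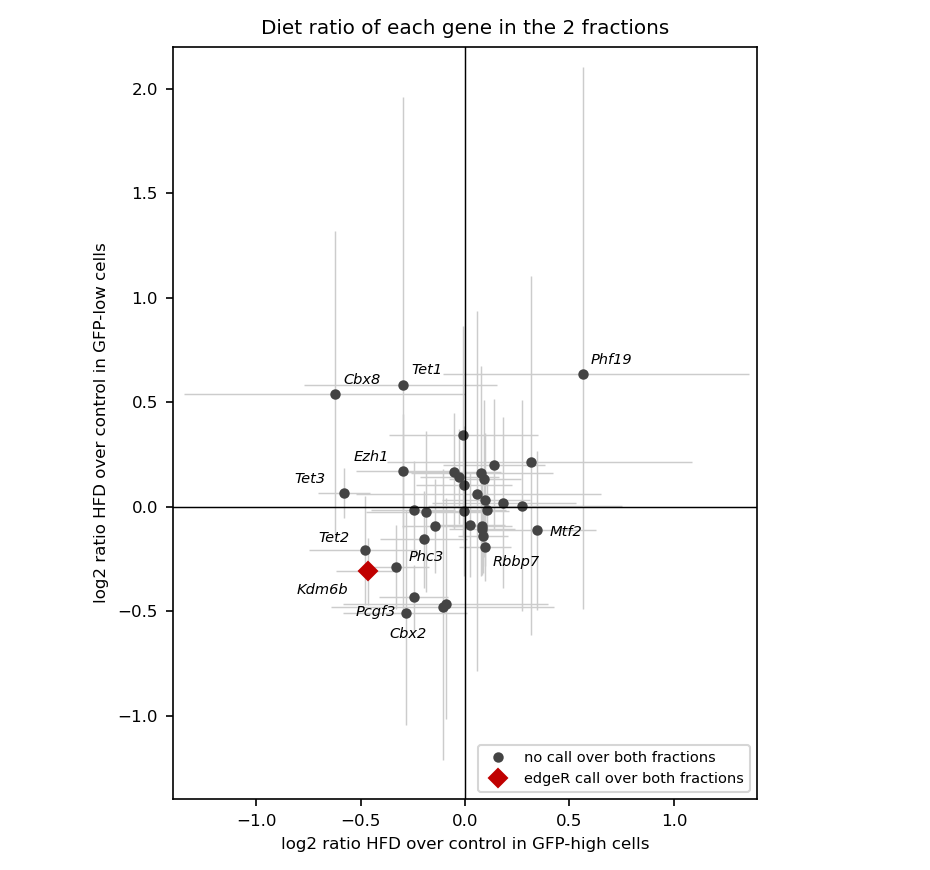
log2 ratio of HFD over control for each of the 36 genes in GFP-high cells (horizontal) and GFP-low cells (vertical), from CPM with 0.5 added; grey bars are exact 95% counting intervals and the red diamond is the gene called by edgeR. Kdm6b, Pcgf3 and Phc3 lie below 0 on both axes with intervals that exclude 0, and Tet3, Ezh1 and Cbx8 lie below 0 in GFP-high and above it in GFP-low.

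Within single fractions none of the 36 genes reached a 2-fold difference between diets, where 1.96% of all genes did in GFP-high and 3.54% in GFP-low. The 95% counting interval excluded 0 for 10 of the 36 genes in GFP-high, 8 below and 2 above (29.5% of all genes), and for 5 in GFP-low, all below (32.7%). These intervals hold counting error only and no difference between mice. Pcgf3, Phc3 and Kdm6b were below 0 in both fractions by this measure. In GFP-high alone the intervals were below 0 for Tet2, Tet3, Ezh1, Jarid2 and Cbx8 and above it for Dnmt1 and Mtf2. Rbbp7 and Cbx2 were below 0 in GFP-low alone. The sign was the same in both fractions for 21 of the 36 genes, against 64.4% of all genes.

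Of the 17 genes listed for the H3K4 methyltransferase complexes, 4 were called lower in HFD by edgeR, where 3.5% of all genes tested were. None was called higher (0 also at an unadjusted p under 0.05). Kmt2a (log2 ratio -0.39 ± 0.10 SE, edgeR adjusted p = 0.0223) and Kmt2d (log2 ratio -0.38 ± 0.10 SE, edgeR adjusted p = 0.0333) were among the 4 called lower. The 4 calls became 1 with RLE scaling or with TMM from tested genes only, 2 with library totals, and 0 with DESeq2 (2 lower at an unadjusted p under 0.05) and without the term for fraction. Kmt2a was at 364 and 239 CPM in control and at 268 and 191 in HFD. No further Polycomb subunit was called by edgeR or DESeq2, though 4 of 27 were lower in HFD at an unadjusted p under 0.05 by edgeR. Of the DNA methylation partners, 1 was higher, Smug1, a uracil glycosylase (log2 ratio 0.60 ± 0.15 SE, edgeR adjusted p = 0.0286, not called by DESeq2), and 1 lower, Apobec1 (log2 ratio -1.49 ± 0.23 SE, edgeR adjusted p = 0.000976). None of the 22 proliferation genes was called for diet by edgeR or DESeq2, and 7 were higher in HFD at an unadjusted p under 0.05 by edgeR.

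Exon length moved with the diet ratio over all genes: the median log2 ratio was 0.12 in the shortest of 5 equal groups of genes by exon length, 0.06, 0.01 and -0.03 in the next ones and -0.08 in the longest. It moved with the fraction ratio too, whose medians in the same order were -0.16, -0.06, 0.03, 0.06 and 0.10. The 36 genes are long, with a median of 6092.5 bp against 4594 bp, and 11 of them are in the longest group. Kdm6b, with 6954 bp, is in the one before it. Cell type markers moved with diet as well, with 5 of 10 enterocyte markers called higher and 6 of 7 Paneth cell markers called lower in HFD. None of the 8 goblet markers was called, yet their sum in GFP-low was 40660 CPM in control and 17846 in HFD. In GFP-high it was 3589 and 3184. The sum of 9 enteroendocrine markers, 2 of them called lower, was 1190 and 506 CPM in GFP-low and 62.4 and 81.9 in GFP-high. The part of length in the fraction ratios of the 36 genes, and of length and cell composition in the diet calls of Kdm6b, Kmt2a and Kmt2d, was not tested.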

How the data were processed

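The deposited values are raw counts of reads per gene, 1 table for each library. Tools named in the submitters' processing notes are HTSeq, TopHat version 1.4.1 and cutadapt, with the builds GRCm38 and mm10. Libraries were strand-specific (dUTP) per the labels' protocols, but how strand was handled in counting, and which annotation was used, is not given in the sources used here. Overlapping genes may share reads, or lose those over shared exons. Symbols matched 36345 of 38124 gene IDs; the rest held 1.88% to 2.39% of a library's counts.

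The test was run on genes reaching 20 counts in 2 or more libraries, with edgeR version 4.0.16 (R version 4.3.3) by its quasi-likelihood F-test, two-sided, with TMM scaling from all genes, a robust prior and diet and fraction as additive terms over all 4 libraries. P-values were adjusted by Benjamini-Hochberg over the 10694 genes, with a threshold of 0.05. The common dispersion was 0.00695. Fitted edgeR log2 ratios are printed with a standard error (SE), taken as their absolute value divided by the square root of the F statistic. Within a diet or a fraction, 1 library was set against 1 without a test, as the log2 ratio of scaled CPM plus 0.5, which understates the change of low genes. It is given with an exact 95% interval for the ratio of Poisson counts, which covers counting error only, as each side is 1 library. The reads carry no molecular identifiers, so duplicate copies may be counted as separate reads and the interval may be too narrow. A 2-fold difference was counted with at least 5 CPM in the higher library. Levels per kb used the union of exons in GENCODE M21, which was not checked against the transcripts present in these cells.

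The 36 genes, the lists and the tests were chosen with earlier results of these data known. All 36 genes are named, with full statistics for those called or at least 1.5-fold apart; of each other list, at most the 2 called genes with the largest ratio in each direction were to be named, and Cdkn2a, Lgr5, Ptprc and the genes that overlap members were named outside that rule, after their values were seen. The alternatives were RLE scaling, library totals, no count filter, a filter of 100 counts, no term for the other factor, each library left out, DESeq2 version 1.42.0, other pseudocounts and, added after seeing the data, TMM from tested genes only and no robust prior. The fit was tested on simulated data.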

Additional observations from a re-analysis of the deposited data

Results flagged for a closer look

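For 5 of the 36 genes the diet ratio had opposite signs in GFP-high and GFP-low cells, with a gap larger than 1.96 counting standard errors; 11.2% of 10688 genes with an estimate did the same. Each rests on single libraries, and none of the differences was tested against the spread between mice. The gap, given as the log2 diet ratio in GFP-high minus that in GFP-low, was -0.64 (counting SE 0.09) for Tet3, from 213 to 143 CPM between control and HFD in GFP-high and from 237 to 247 in GFP-low. For Ezh1 it was -0.46 (0.18), from 61.0 to 49.6 CPM in GFP-high and from 45.3 to 51.0 in GFP-low. For Cbx8, with 27 to 46 counts per library, it was -1.16 (0.48). Rbbp4 and Rbbp7 went the other way, with gaps of 0.23 (0.11) and 0.29 (0.10).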

How the results depend on the processing

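The 20 genes called between fractions became 11 without the term for diet, 10 with DESeq2 and 5 to 10 with both that term and 1 library left out, since 3 libraries cannot carry both terms and leave a residual degree of freedom. The higher ones, 17, became 11, 10 and 5 to 10, and the lower ones, 3, became 0, 0 and 0 to 1, and 1 with library totals. Over all genes the fraction calls, 5090, became 2948, 2390 and 954 to 2118. For diet, Kdm6b as the 1 call, lower in HFD, became 0 with RLE, with DESeq2 and without the term for fraction, alone or with each library also left out, and 2 without the count filter or with 100 counts. Over all genes the 691 diet calls became 1158 without the filter, 187 with DESeq2, and 0 without the term for fraction (149 at an unadjusted p under 0.05 by edgeR), also when each library was left out as well; what leaving out a library does by itself could not be fitted. The cause of these changes was not tested. With library totals 5 genes in control and 8 in HFD were at least 2-fold apart between fractions, and the ratio of Tet3 in control turned to 0.0210. No called gene changed sign in any fit. No paired analysis was possible because each group has 1 library, with no replicate numbers and no word on whether fractions share mice; the term for diet does compare the fractions within each diet. Depth limits Dnmt3b, Tet1, Phf1, Phf19, Cbx8, Pcgf1 and Pcgf5, each with fewer than 100 counts in every library.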
